A study of Mus musculus with 23 samples.

Results

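The hypothalamus of celastrol-treated db/db mice was followed from 1 day to 4 days of treatment, on 8 of the 23 expression arrays of the study. The 8 arrays were taken by their titles, 4 from mice given celastrol for 4 days and 4 from mice given celastrol for 1 day. All animals were male db/db mice, 8 weeks old and kept for 2 weeks on normal chow, and they received intraperitoneal injections of celastrol or of DMSO, the vehicle. A celastrol dose of 250 µg/kg is given for 6 h alone, and for 1 day and 4 days the labels state 100 µl in DMSO at 25 µl per day. The vehicle mice of 4 days and of 1 day, 4 arrays each, were measured in the same way and show what changes between those times without the drug. No untreated animals and no lean animals were among the arrays used here. Every mouse carried the db/db mutation, which disables the signalling form of the leptin receptor, so that all groups lacked normal leptin signalling. Arrays of one group are labelled as biological replicates. The p-values below rest on the spread between arrays within groups, estimated over all 23 arrays of the study.

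Celastrol comes from the thunder god vine, and obese mice given it eat less and lose weight. In cultured cells it activates HSF1, the transcription factor of the heat shock response, and inhibits NF-κB, which drives inflammatory genes. The hypothalamus holds the neurons that sense leptin and control feeding, the oxytocin and vasopressin neurons, and tanycytes, which line the floor of the third ventricle beside the median eminence.

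Values are log2 expression, so a difference of 1 is a doubling, and each difference is the level at 4 days minus that at 1 day. Array medians lay between 8.57 and 8.64 over all 23 arrays. The 4-day celastrol arrays differed more among themselves than the 1-day arrays, since the SD of the difference between a pair over all genes was 0.147 to 0.189 at 4 days and 0.127 to 0.137 at 1 day. On the first principal component of the 8 arrays, which held 25.4% of the variance, replicates 4 and 3 of the 4-day group stood at 14.6 and 8.62, and the other 6 arrays lay between −9.62 and −0.05. The 95% confidence interval of a difference reached 0.136 to either side for the median gene.

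Of 18702 genes tested, 66 (0.353%) differed between 4 days and 1 day of celastrol at an adjusted p under 0.05 (limma, Benjamini-Hochberg adjustment over all genes). At 4 days 40 (0.214%) were higher and 26 (0.139%) were lower. The split depended on the scaling, with 35 higher and 46 lower after a further quantile normalisation, and 22 higher and 39 lower with each array centred on its median. The differences were small: higher genes rose 1.15-fold to 1.39-fold and lower genes fell 1.14-fold to 1.68-fold. The arrays of the 2 times did not overlap for 62 of the 66, and over all genes they did not overlap for 9.75%. The 66 were chosen on these same arrays, so the lack of overlap adds no support to the calls. At an unadjusted p under 0.05, 2815 genes (15.1%) differed, 1886 higher (10.1%) and 929 lower (4.97%). The count rested on every 1-day array: it came to 7, 4, 4 and 3 genes without replicate 1, 2, 3 or 4 of the 1-day group. It was 32, 30, 26 and 77 without replicate 1, 2, 3 or 4 of the 4-day group. It was 6 with the mean level of choroid plexus markers as a covariate (Chordc1, Olfr1062, Olfr1339, Pla2g4e, Snx4 and Tnfaip3) and 1, Scgb2b2, when the spread was estimated from these 8 arrays alone. The 4 genes left without replicate 3 of the 1-day group were Chordc1, Il10rb, Olfr624 and Pla2g4e, and the 3 left without replicate 4 were Chordc1, Pla2g4e and 1700084J12Rik. Scgb2b2 is outside the rule for named genes and is given because it stands alone.

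The clearest fall was in Chordc1, which encodes a co-chaperone of HSP90. Its level was 9.80, 9.78, 9.86 and 9.65 on the 4-day celastrol arrays, against 10.10, 10.20, 10.17 and 10.11 on the 1-day celastrol arrays. All 4 arrays of 4 days lay below all 4 arrays of 1 day. The log2 difference was −0.37 ± 0.055 (SE, limma), with an adjusted p of 0.0135, the smallest of all genes. In vehicle mice Chordc1 also fell, by 0.49 on the log2 scale (limma, adjusted p = 5.74e-05), with 9.81, 9.76, 9.72 and 9.84 at 4 days and 10.32, 10.33, 10.12 and 10.31 at 1 day. The test of the difference between celastrol and vehicle mice gave 0.12 ± 0.16 (95% confidence interval; limma, adjusted p = 0.536). Chordc1 passed the threshold in celastrol mice in all 8 fits that left out 1 of the 8 arrays, and in 11 of 12 other settings. The exception was the fit to these 8 arrays alone.

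The promoter of Chordc1 is shown because the heat shock genes were followed as a list and HSF1 binds a known motif. The window runs from 250 bases before to 50 bases after the RefSeq start, at chr9:18292017-18292316 of GRCm38.p6 on the plus strand, and capitals mark every match to the core heat shock element, TTCNNGAA or GAANNTTC. Both motifs read the same on either strand.

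Chordc1: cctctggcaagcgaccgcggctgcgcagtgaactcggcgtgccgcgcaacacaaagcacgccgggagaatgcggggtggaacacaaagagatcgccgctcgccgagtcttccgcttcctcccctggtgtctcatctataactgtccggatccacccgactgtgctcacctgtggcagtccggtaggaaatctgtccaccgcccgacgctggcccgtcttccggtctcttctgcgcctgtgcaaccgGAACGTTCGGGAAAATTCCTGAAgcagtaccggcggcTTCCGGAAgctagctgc

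The window holds 5 matches, of which 4 overlap one another across the start site and 1 stands apart, 33 bases after the start. Of 32851 promoter windows in the RefSeq table, 15.1% hold at least 1 match and 3 hold 5 or more. Among the 17 genes of the heat shock list with a window, 11 have at least 1 match in one, against 16.97% of all 27025 genes. A match describes these letters only.

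The other heat shock genes moved little. Of 20 measured genes of the heat shock response, 14 were lower and 6 higher at 4 days of celastrol, with a median log2 difference of −0.06 against 0.02 over all genes, and Chordc1 alone passed. For 5 of the 20 the 4-day arrays all lay below the 1-day arrays, and over all genes 2.95% did so. Hspa1a, the inducible HSP70, had 9.02, 9.13, 8.95 and 9.01 at 4 days and 9.15, 9.14, 9.25 and 9.36 at 1 day. Those groups did not overlap, and the difference of −0.20 did not pass (limma, adjusted p = 0.154). Hspa8, the constitutive HSP70, differed by −0.06 (adjusted p = 0.407) and Dnajb4, an HSP40 co-chaperone, by −0.10 (adjusted p = 0.340), both by limma. In vehicle mice 16 of the 20 were lower at 4 days, with a median of −0.09, whereas 60.7% of all genes had a difference above 0 there. Past the threshold in vehicle mice, 4 were lower (3.22% of all genes) and 1 was higher (8.56% of all genes). The mean level of the list lay between 10.89 and 10.94 on the 4-day celastrol arrays and between 10.95 and 11.01 on the 1-day celastrol arrays. In vehicle mice it lay between 10.87 and 10.92 at 4 days and between 10.96 and 11.00 at 1 day.

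**Figure D1:**
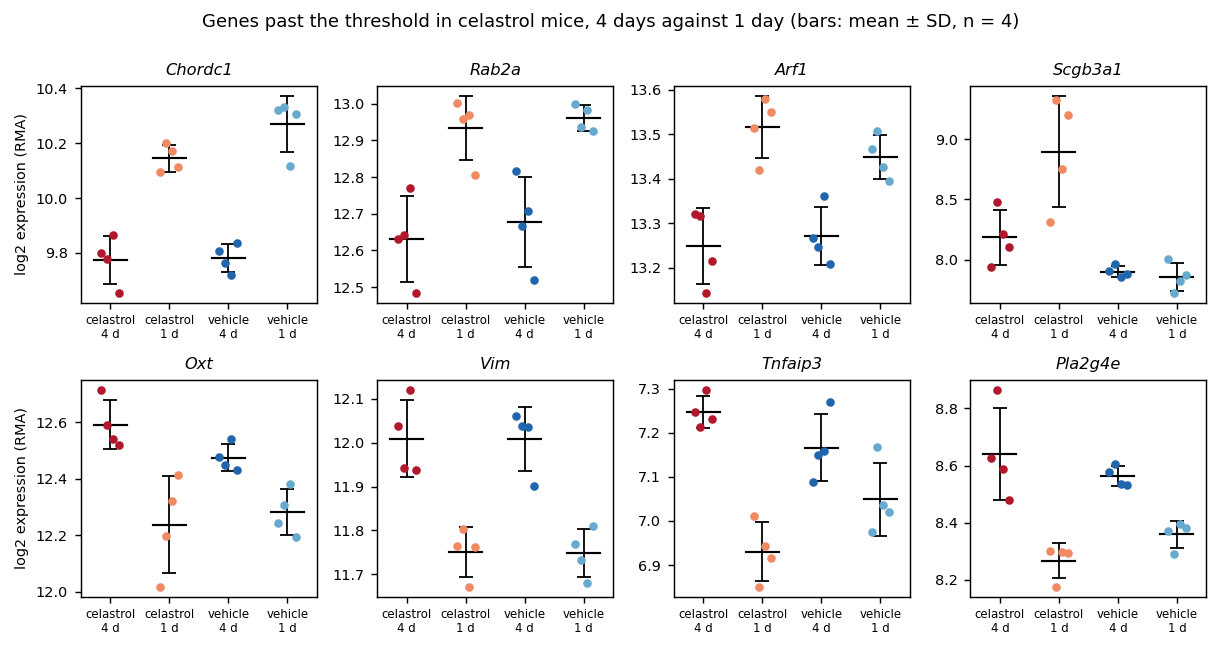
Log2 expression of 8 genes past the threshold on each array, with celastrol at 4 days and 1 day and vehicle at 4 days and 1 day from left to right. Points are arrays, black lines are means and bars are SD (n = 4). Chordc1, Rab2a, Arf1 and Vim move alike in celastrol and vehicle mice, and the Scgb3a1 level stands high in the 1-day celastrol group alone.

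A pair of small GTPases of the secretory pathway, put together after their values were seen, fell as Chordc1 did. Rab2a, which acts in traffic between the endoplasmic reticulum and the Golgi, had 12.63, 12.64, 12.77 and 12.48 at 4 days and 13.00, 12.96, 12.97 and 12.80 at 1 day of celastrol. It fell by 0.30 ± 0.062 on the log2 scale (SE; limma, adjusted p = 0.0389), with no overlap. Arf1, which recruits coat proteins to the Golgi, had 13.32, 13.32, 13.14 and 13.22 at 4 days and 13.51, 13.42, 13.58 and 13.55 at 1 day. It fell by 0.27 ± 0.055 (limma, adjusted p = 0.0389), again with no overlap. Both also fell in vehicle mice, Rab2a by 0.28 (limma, adjusted p = 0.00712) and Arf1 by 0.18 (limma, adjusted p = 0.0366). In celastrol mice Rab2a kept its call in 1 and Arf1 in 2 of the 8 fits without 1 array. Snx4, a sorting nexin that returns cargo from endosomes, rose by 0.30 ± 0.054 in celastrol mice (limma, adjusted p = 0.0259) and by 0.17 in vehicle mice (limma, adjusted p = 0.0413). Its 4-day celastrol arrays, 10.41, 10.35, 10.37 and 10.48, all lay above the 1-day arrays, 10.15, 10.12, 10.09 and 10.07.

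Scgb3a1 had the largest fall past the threshold after Olfr191. This gene, a secretoglobin known from airway epithelium, had 7.94, 8.48, 8.21 and 8.10 at 4 days of celastrol, against 8.31, 9.33, 8.75 and 9.20 at 1 day. The groups overlapped in 1 array of each time, and Scgb3a1 fell 1.64-fold (log2 difference −0.71 ± 0.16, SE; limma, adjusted p = 0.0467). In vehicle mice its mean was 7.90 ± 0.05 at 4 days and 7.86 ± 0.12 at 1 day (SD, n = 4 each), a difference of 0.05 (limma, adjusted p = 0.879). The celastrol mean was 7.97 ± 0.25 at 6 h (SD, n = 3), so that the 1-day group stood highest of the 3 times in celastrol mice. The difference between the time changes, −0.76, did not pass (limma, adjusted p = 0.138), and Scgb3a1 passed in 2 of the 8 fits without 1 array.

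The falls of Foxe1, H2bc9, Gzmg and Cactin were in genes whose vehicle levels moved little. Foxe1, a forkhead transcription factor of thyroid development, had 8.33, 8.44, 8.47 and 8.48 at 4 days and 8.77, 8.89, 8.68 and 8.77 at 1 day of celastrol. It fell by 0.35 ± 0.071 (SE; limma, adjusted p = 0.0389), while the vehicle difference was 0.05 (adjusted p = 0.691). H2bc9, a core histone H2B gene, fell by 0.30 and Cactin, a splicing-associated protein, by 0.25 (limma, adjusted p = 0.0389 for both). Gzmg, a granzyme, fell by 0.40 (limma, adjusted p = 0.0381). The differences in vehicle mice were 0.07 for H2bc9, −0.01 for Cactin and −0.03 for Gzmg, none past the threshold. The difference of the time changes was −0.40 ± 0.21 for Foxe1, −0.37 ± 0.19 for H2bc9, −0.37 ± 0.23 for Gzmg and −0.24 ± 0.16 for Cactin (95% confidence intervals), and none passed after adjustment over all genes (limma, adjusted p = 0.105 for Foxe1, 0.0948 for H2bc9, 0.155 for Gzmg and 0.168 for Cactin). The falls kept their calls in 1 of the 8 fits without 1 array for Foxe1, Gzmg and Cactin, and in 2 for H2bc9.

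A pair of enzymes that modify heparan sulfate, the sugar chain on which many growth factors dock, were lower at 4 days. Ndst4, an N-deacetylase and N-sulfotransferase, had 9.82, 9.68, 9.53 and 9.55 at 4 days and 9.88, 9.88, 10.04 and 9.85 at 1 day of celastrol. It fell by 0.27 ± 0.057 (SE; limma, adjusted p = 0.0389) and fell in vehicle mice too, by 0.21 (limma, adjusted p = 0.0205). Hs3st6, a 3-O-sulfotransferase, had 7.78, 7.72, 7.76 and 7.72 at 4 days and 7.88, 8.01, 7.96 and 8.04 at 1 day. It fell by 0.23 ± 0.049 (SE; limma, adjusted p = 0.0406) and moved the other way in vehicle mice, rising by 0.20 (limma, adjusted p = 0.0132). For Hs3st6 the difference between the time changes passed, at −0.43 (limma, adjusted p = 0.0176), but the fall itself passed in none of the 8 fits without 1 array. The pair was put together after their values were seen.

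Among the genes that rose was Oxt, which encodes the oxytocin precursor of magnocellular and parvocellular neurons. Its level was 12.71, 12.59, 12.54 and 12.52 on the 4-day celastrol arrays, against 12.02, 12.20, 12.32 and 12.41 on the 1-day celastrol arrays. The groups did not overlap, and Oxt rose 1.28-fold, by 0.35 ± 0.077 on the log2 scale (SE; limma, adjusted p = 0.0406). In vehicle mice it averaged 12.47 ± 0.05 at 4 days and 12.28 ± 0.08 at 1 day (SD, n = 4 each), a difference of 0.19 that did not pass (limma, adjusted p = 0.102). The time changes were not shown to differ (0.16 ± 0.23, 95% confidence interval; limma, adjusted p = 0.542). Oxt kept its call in 1 of the 8 fits without 1 array. Of the 30 measured genes in the list of neuropeptides other than feeding peptides, and of their receptors, 15 were higher and 15 lower, and Oxt alone passed.

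Vim, the intermediate filament of tanycytes, astrocytes and vessel walls, rose as well. It had 12.04, 11.94, 12.12 and 11.94 at 4 days and 11.77, 11.80, 11.67 and 11.76 at 1 day of celastrol. The rise was 0.26 ± 0.051 (SE; limma, adjusted p = 0.0354) in celastrol mice and 0.26 in vehicle mice (limma, adjusted p = 0.00405). The 95% confidence interval of the difference between these changes reached 0.15 to either side of −0.0018. Vim kept its call in 2 of the 8 fits without 1 array, and lost it with the choroid plexus mean as a covariate, where the difference was 0.20 (limma, adjusted p = 0.137).

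Vim was the single gene past the threshold among 20 measured markers of tanycytes and ependyma. Of these, 14 were higher and 6 lower at 4 days of celastrol, with a median of 0.10, and 8 were higher at an unadjusted p under 0.05 (10.1% of all genes) against 1 lower. Crym, which binds thyroid hormone and marks tanycytes, had 9.50, 8.86, 9.20 and 8.87 at 4 days and 8.71, 8.55, 8.67 and 8.92 at 1 day. Its groups overlapped and the difference of 0.40 did not pass (limma, adjusted p = 0.0878), while in vehicle mice Crym rose by 0.40 (limma, adjusted p = 0.0158). Dnah11, a dynein chain of motile cilia, differed by 0.19 (adjusted p = 0.0952) and Gpr50, an orphan receptor of tanycytes, by 0.16 (adjusted p = 0.308). Col23a1, another marker of the list, went the other way in celastrol mice, at −0.18 (limma, adjusted p = 0.155). It was the 1 gene lower at an unadjusted p under 0.05. In vehicle mice the list had a median of 0.13 against 0.03 over all genes, with 3 genes past the threshold and higher (8.56% of all genes).

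Markers of other cells that border the ventricle and the vessels were also mostly higher. Of 22 mural cell and perivascular fibroblast genes 20 were higher at 4 days of celastrol (57.8% of all genes), with a median of 0.14, none past the threshold. The arrays of the 2 times did not overlap for 4 of them, all higher at 4 days (6.8% of all genes). In vehicle mice 20 of the 22 were higher too, with a median of 0.28 and 9 past the threshold, all higher (8.56% of all genes). Rgs5, a pericyte marker, had 9.60, 9.47, 9.53 and 9.42 at 4 days and 9.32, 9.19, 9.33 and 9.33 at 1 day of celastrol. These groups did not overlap, and the difference was 0.21 (limma, adjusted p = 0.0591), against −0.03 in vehicle mice. Pdgfrb, the receptor that recruits pericytes, differed by 0.15 (adjusted p = 0.239), and Dcn, a fibroblast proteoglycan, by 0.62 (adjusted p = 0.244).

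For Dcn the 4-day arrays ranged widely, at 10.65, 10.25, 10.64 and 9.62, and the lowest of them lay within the 1-day range of 9.55 to 9.83. Of 16 endothelial genes 11 were higher, with a median of 0.07 and none past the threshold. Kdr, the VEGF receptor of endothelium, had 7.93, 7.69, 7.74 and 7.56 at 4 days and 7.27, 7.31, 7.43 and 7.31 at 1 day. The arrays did not overlap and the difference of 0.40 did not pass (limma, adjusted p = 0.0801). Ocln, a tight junction protein, differed by 0.22 (adjusted p = 0.0646) and Tie1, an endothelial receptor kinase, by 0.20 (adjusted p = 0.0952).

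The 20 choroid plexus markers had a median of 0.09 in celastrol mice, 15 of them higher, with none past the threshold. Their mean level lay between 7.80 and 7.91 on the 4-day celastrol arrays and between 7.72 and 7.81 on the 1-day celastrol arrays. In vehicle mice the same mean lay between 7.82 and 8.09 at 4 days and between 7.62 and 7.81 at 1 day. Past the threshold there, 7 of the genes rose (8.56% of all genes) and 1 fell (3.22% of all genes). Kcnj13, a potassium channel of choroid plexus, differed by 0.33 in celastrol mice (limma, adjusted p = 0.632) and rose by 1.41 in vehicle mice (limma, adjusted p = 0.00475). Ttr, the choroid plexus carrier of thyroid hormone, had 8.06, 7.38, 7.73 and 8.53 at 4 days and 7.39, 7.34, 7.30 and 7.88 at 1 day of celastrol, overlapping, with a difference of 0.45 (adjusted p = 0.335). Cab39l was among the 5 markers that were lower in celastrol mice. Its difference was −0.19 to −0.15 over 20 alternative settings, and it passed in 3 of them. The choroid plexus mean was thus higher at 4 days in both treatments, with arrays that overlapped in celastrol mice and did not in vehicle mice. With that mean as a covariate the differences of Rgs5 and Kdr were 0.19 and 0.28. In bulk tissue, fewer cells of a type and less RNA per cell cannot be told apart.

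Mir431, a microRNA gene, rose 1.31-fold between 1 day and 4 days of celastrol. It lies in the imprinted cluster of chromosome 12, among neuron-enriched microRNAs. Its probe set had 9.02, 8.99, 9.08 and 9.10 at 4 days and 8.80, 8.68, 8.45 and 8.69 at 1 day, without overlap. The rise was 0.39 ± 0.072 (SE; limma, adjusted p = 0.0277), and in vehicle mice it was 0.43 (limma, adjusted p = 0.00200). The call held in 4 of the 8 fits without 1 array. Its 2 mature RNAs are shown with the seed, bases 2 to 8, in capitals, as RefSeq gives them for GRCm38.p6, at chr12:109590459-109590479 for the 5p arm and chr12:109590502-109590523 for the 3p arm, both on the plus strand.
mmu-miR-431-5p: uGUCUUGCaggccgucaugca
mmu-miR-431-3p: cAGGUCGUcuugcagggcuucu

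The seeds of the 2 arms differ, and the array probes whole transcripts, so the values do not show which mature arm was present. Neighbouring microRNA genes were picked with their values in view. Mir127 differed by 0.37 in celastrol mice (adjusted p = 0.0952) and Mir136 by 0.21 (adjusted p = 0.229), and Mir434 by −0.14 (adjusted p = 0.649), all by limma. None of these neighbours passed.

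Tnfaip3, which rose, encodes A20, which switches off NF-κB signalling and is itself an NF-κB target. It had 7.25, 7.21, 7.30 and 7.23 at 4 days of celastrol, against 7.01, 6.85, 6.94 and 6.92 at 1 day. The groups did not overlap, and Tnfaip3 rose by 0.32 ± 0.055 (SE; limma, adjusted p = 0.0255). The vehicle difference was 0.12 (limma, adjusted p = 0.159), and the time changes were not shown to differ (0.20 ± 0.16, 95% confidence interval; limma, adjusted p = 0.257). The rise passed in 5 of the 8 fits without 1 array.

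Il10rb, the receptor chain shared by interleukin-10 and related cytokines, rose by 0.31 ± 0.064 (SE; limma, adjusted p = 0.0389). Its arrays were 9.14, 8.98, 8.96 and 8.80 at 4 days and 8.58, 8.53, 8.85 and 8.68 at 1 day, with an overlap of 1 array on each side. In vehicle mice Il10rb differed by 0.15 (limma, adjusted p = 0.122). Ccl20, the chemokine ligand of CCR6, rose by 0.36 in celastrol mice (limma, adjusted p = 0.0425) and by 0.39 in vehicle mice (limma, adjusted p = 0.00470). In celastrol mice Il10rb kept its call in 2 and Ccl20 in 1 of the 8 fits without 1 array. Pla2g4e, a cytosolic phospholipase A2 family member that makes N-acyl phospholipids, had 8.63, 8.86, 8.59 and 8.48 at 4 days and 8.30, 8.18, 8.30 and 8.29 at 1 day. It rose 1.30-fold (log2 difference 0.37 ± 0.059, SE; limma, adjusted p = 0.0204) with no overlap, rose by 0.20 in vehicle mice (limma, adjusted p = 0.0291), and kept its call in 7 of the 8 fits without 1 array.

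Among the other falls, Cyp2a12, a cytochrome P450 best known in liver, had 5.92, 6.05, 5.96 and 5.99 at 4 days and 6.47, 6.43, 6.27 and 6.46 at 1 day of celastrol. It fell by 0.43 ± 0.082 (SE; limma, adjusted p = 0.0299) with no overlap, and by 0.26 in vehicle mice (limma, adjusted p = 0.0444). Mcemp1, a membrane protein of mast cells, fell by 0.36 (limma, adjusted p = 0.0394), beside −0.22 in vehicle mice, which did not pass. Ceacam14, a carcinoembryonic antigen family member, fell by 0.30 (limma, adjusted p = 0.0406), with 5.36, 5.38, 5.26 and 5.44 at 4 days and 5.71, 5.64, 5.59 and 5.71 at 1 day. The Ceacam14 arrays did not overlap, and its vehicle difference was 0.13 (limma, adjusted p = 0.201).

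Further genes rose with less known of them in brain. Mss51, a mitochondrial protein of skeletal muscle, rose by 0.41 ± 0.084 (SE; limma, adjusted p = 0.0389), Pxmp2, a channel of the peroxisomal membrane, by 0.35 ± 0.075 (adjusted p = 0.0407), and S100a3, a calcium-binding protein of hair follicles, by 0.34 ± 0.070 (adjusted p = 0.0389). Ctdsp1, a phosphatase that acts on RNA polymerase II, rose by 0.30 ± 0.061 (limma, adjusted p = 0.0381), and averaged 10.35 ± 0.06 at 4 days and 10.05 ± 0.04 at 1 day of celastrol (SD, n = 4 each). All 4 of these genes also rose in vehicle mice, by 0.19 to 0.39.

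Genes for olfactory, vomeronasal and taste receptors, which serve the chemical senses, made up 9 of the 66, with 6 higher and 3 lower at 4 days. They were 9 of 1216 tested, where 0.353% of all genes were called. A difference above 0 was found for 793 of the 1216 and for 57.8% of all genes, with medians of 0.05 and 0.02. Their levels were low, with a median of 5.64 against 8.65 over all genes. The largest changes past the threshold in each direction were among them. Olfr108 rose by 0.48 ± 0.084 (SE; limma, adjusted p = 0.0255), with 4.99, 4.54, 4.93 and 5.03 at 4 days and 4.36, 4.43, 4.30 and 4.49 at 1 day. Olfr191 fell by 0.74 ± 0.14 (SE; limma, adjusted p = 0.0299), with 4.27, 4.34, 4.17 and 4.48 at 4 days and 5.44, 4.62, 4.89 and 5.30 at 1 day. Neither pair of groups overlapped. The calls held in 4 of the 8 fits without 1 array for Olfr108 and in 3 for Olfr191. In all, 26 of the 66 genes belonged to the lowest tercile by mean level over all arrays, and 62 genes passed when that tercile was left out of the fit.

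The vehicle comparison was read beside the celastrol one because the pair share no arrays. In vehicle mice 2203 genes (11.8%) differed between 4 days and 1 day, 1600 higher (8.56%) and 603 lower (3.22%). After a further quantile normalisation 322 were higher and 495 lower, and with arrays centred on their medians 1016 were higher and 934 lower. The count was 1169, 1466 and 1016 without replicate 2, 3 or 4 of the 1-day vehicle group, and 1319 and 1314 without replicate 2 or 3 of the 4-day vehicle group. The spread of the arrays moved with that result: the SD over genes was 1.89 to 1.91 on the 4-day vehicle arrays and 1.93 to 1.96 on the 1-day vehicle arrays, without overlap, and no gene passed with this SD as a covariate (1784 at an unadjusted p under 0.05, by limma). In celastrol mice the SD was 1.88 to 1.94 at 4 days and 1.91 to 1.93 at 1 day, overlapping, and 89 genes passed with it as a covariate. Of the 66 genes called in celastrol mice, 26 were called in vehicle mice too, 24 in the same direction and 2, Tex22 and Hs3st6, in opposite directions. The sign of the vehicle difference was the same for 50 and opposite for 16.

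**Figure D2:**
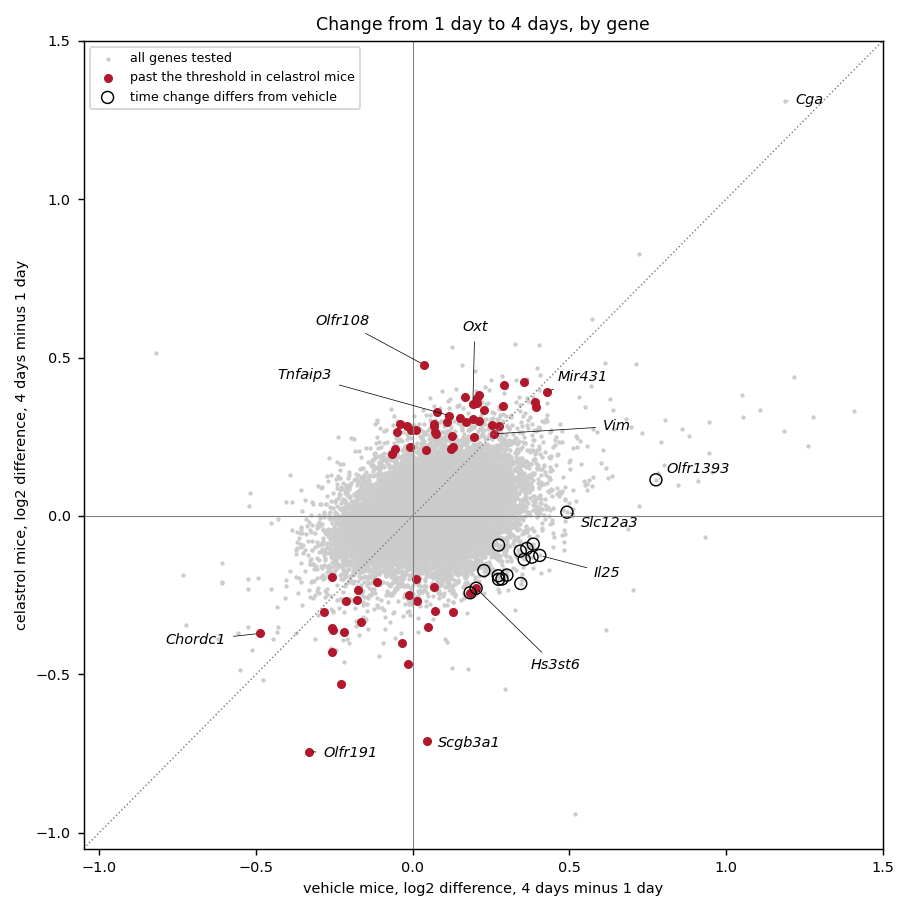
Log2 difference between 4 days and 1 day of each gene in celastrol mice (vertical axis) against that in vehicle mice (horizontal axis). Grey points are all 18702 genes, red points the 66 past the threshold in celastrol mice, black circles the 17 whose time change differed from vehicle, and the dotted line marks equal change. All 17 circled genes lie to the right of 0, higher at 4 days in vehicle mice.

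The time change differed between celastrol and vehicle mice for 17 genes (0.0909%), all with the lower change in celastrol mice. All 17 rose in vehicle mice, while in celastrol mice the difference was below 0 for 15 and above 0 for 2. Of the 17, only Tex22 and Hs3st6 passed the threshold in celastrol mice. Il25, the cytokine interleukin-25, had 7.09, 6.95, 7.20 and 7.12 at 4 days and 7.19, 7.16, 7.23 and 7.28 at 1 day of celastrol. In vehicle mice it had 7.40, 7.39, 7.45 and 7.40 at 4 days and 7.03, 6.87, 7.03 and 7.09 at 1 day. The difference of the time changes was −0.53 ± 0.089 (SE; limma, adjusted p = 0.0176).

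Cilp2, a cartilage matrix protein, and Rnf207, a RING finger protein of cardiac muscle, each gave −0.47 (limma, adjusted p = 0.0176 for both). Tmprss13, a membrane serine protease, gave −0.56 (adjusted p = 0.0176) and Cd8a, the T-cell co-receptor, −0.49 (adjusted p = 0.0297). No gene passed this test after a further quantile normalisation (1850 at an unadjusted p under 0.05, by limma), with the SD of each array as a covariate (1162) or with the choroid plexus mean as a covariate (1609). Without replicate 4 of the 4-day celastrol group 175 genes passed, and without replicate 3 of that group 55. Without replicate 1 or 2 of the 4-day celastrol group 7 and 8 passed, and without replicate 1, 2 or 4 of the 1-day celastrol group 9, 9 and 8 passed. Among vehicle arrays, 10, 10 and 38 passed without replicate 2, 3 or 4 of 4 days, and 11 without replicate 3 or replicate 4 of 1 day.

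Among the inflammatory and glucocorticoid-response lists Tnfaip3, described above, was the single gene past the threshold, and several others had lower means at 4 days. Of 24 measured NF-κB targets and inflammatory genes 9 were higher and 15 lower in celastrol mice, with a median of −0.03. At an unadjusted p under 0.05, 3 of them were higher and 3 lower there (10.1% and 4.97% of all genes). In vehicle mice 22 were higher and 2 lower, with a median of 0.13, and none passed. Of all genes 60.7% had a difference above 0 in vehicle mice. Genes for olfactory, vomeronasal and taste receptors, with a median level of 5.64, had a median difference of 0.11 there. The median level of the 24 NF-κB and inflammatory genes was 7.49, against 8.65 over all genes. Of 23 targets of the acute phase and of STAT3 signalling 9 were higher and 14 lower, with a median of −0.02 against 0.15 in vehicle mice. At an unadjusted p under 0.05, 1 of the 23 was higher and 2 were lower in celastrol mice. Of 27 glucocorticoid-response genes 7 were higher and 20 lower, with a median of −0.08 against 0.07 in vehicle mice, and 6 were lower at an unadjusted p under 0.05 (4.97% of all genes) against 1 higher. The mean level of the 27 lay between 9.64 and 9.74 at 4 days and between 9.68 and 9.91 at 1 day of celastrol, so the groups overlapped.

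Plin4, a lipid droplet protein and glucocorticoid target, had 8.71, 8.73, 8.92 and 8.80 at 4 days and 9.23, 9.22, 8.94 and 9.37 at 1 day of celastrol. The 4-day arrays all lay below the 1-day arrays, and the difference of −0.40 did not pass (limma, adjusted p = 0.0929). Tmem252 differed by −0.37 (adjusted p = 0.181), with groups that overlapped. Galnt15, an enzyme that starts O-linked glycans, differed by −0.20 in celastrol mice (limma, adjusted p = 0.141) and rose by 0.28 in vehicle mice (limma, adjusted p = 0.00801). For Galnt15 the difference of the time changes passed, at −0.48 (limma, adjusted p = 0.0297).

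Ch25h makes 25-hydroxycholesterol and is induced in inflammation. It had 7.21, 7.11, 7.02 and 6.69 at 4 days and 7.21, 7.73, 7.13 and 7.88 at 1 day of celastrol, a difference of −0.48 that did not pass (limma, adjusted p = 0.128). Lcn2, an acute-phase protein, had 7.18, 7.82, 7.76 and 7.15 at 4 days and 7.45, 7.77, 7.34 and 8.78 at 1 day. One array of the 1-day group stood far above the rest, and the difference of −0.36 ± 0.47 (95% confidence interval) did not pass (limma, adjusted p = 0.480).

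Osmr, the oncostatin M receptor, had 8.53, 8.57, 7.98 and 7.71 at 4 days and 8.74, 8.66, 8.25 and 8.75 at 1 day, with a difference of −0.40 (limma, adjusted p = 0.229). Replicates 3 and 4 of the 4-day group were low for Osmr, and these are the arrays that stood apart on the first principal component. Lrg1, another acute-phase gene, differed by −0.16 (adjusted p = 0.529), Nfkb2 by −0.19 (adjusted p = 0.176) and Ptgs2, which makes prostaglandins, by −0.27 (adjusted p = 0.271).

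**Figure D3:**
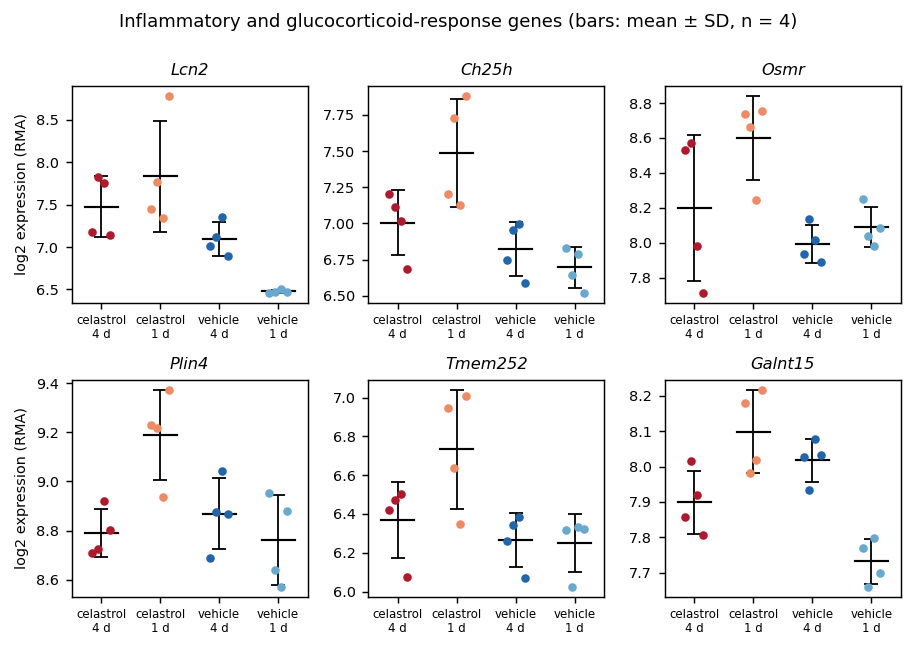
Log2 expression of 6 inflammatory and glucocorticoid-response genes on each array, with celastrol at 4 days and 1 day and vehicle at 4 days and 1 day from left to right. Points are arrays, black lines are means and bars are SD (n = 4). The 4-day celastrol mean is below the 1-day celastrol mean for each of the 6 genes, with overlapping arrays for all but Plin4. Members that were higher are not drawn: 9 of 24 NF-κB targets, 9 of 23 acute-phase genes and 7 of 27 glucocorticoid-response genes.

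Interleukin-1 family genes were measured as a list because celastrol's action on weight has been tied to interleukin-1 receptor 1. The receptor gene itself was not analysed here. Of 20 measured family members 10 were higher and 10 lower at 4 days of celastrol, with a median of 0.00, and none passed. The interleukin-36γ gene, under its array symbol Il1f9, had 6.11, 5.94, 6.10 and 6.35 at 4 days and 5.78, 5.86, 5.85 and 5.88 at 1 day. It did not overlap and did not pass (difference 0.28; limma, adjusted p = 0.0961), and in vehicle mice it rose by 0.35 (limma, adjusted p = 0.00791). Il1rn, the receptor antagonist, differed by 0.22 (adjusted p = 0.130) and Il18bp, which binds interleukin-18, by 0.19 (adjusted p = 0.141). Of 23 interferon-response and antigen-presentation genes 17 were higher, with a median of 0.09 and none past the threshold. Ifit1, an interferon-induced antiviral protein, differed by 0.30 (adjusted p = 0.137).

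Feeding and leptin genes showed no change past the threshold. Of 24 genes of the feeding circuit 11 were higher and 13 lower, and of 20 genes of leptin receptor signalling 12 were higher and 8 lower. Npy, the feeding-stimulating neuropeptide Y, had 11.66, 11.79, 11.96 and 11.61 at 4 days and 11.50, 11.32, 11.42 and 11.65 at 1 day of celastrol. Its groups overlapped, and the difference was 0.28 ± 0.23 (95% confidence interval; limma, adjusted p = 0.229), beside 0.25 in vehicle mice. Pomc, which encodes the precursor of α-MSH and ACTH, differed by −0.23 ± 0.99 (95% confidence interval; limma, adjusted p = 0.866). Pomc had 8.29, 8.16, 8.12 and 8.34 at 4 days and 8.29, 9.09, 8.20 and 8.26 at 1 day, so 1 array of the 1-day group stood apart.

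That array, replicate 2 of the 1-day group, was also the highest of its group for the pituitary genes Gh, Cga and Prl. Gh, growth hormone, had 7.61, 7.40, 7.50 and 7.79 at 4 days and 7.52, 10.79, 8.04 and 7.73 at 1 day. The mean of 13 pituitary markers lay between 8.01 and 8.23 on the 4-day celastrol arrays and between 7.93 and 8.42 on the 1-day celastrol arrays. With the mean of the pituitary hormone genes as a covariate 64 genes passed, and without replicate 2 of the 1-day group 4 genes passed, Chordc1, Defb47, Olfr191 and Phldb2. Phldb2, outside the rule for named genes, is given here because the set is small.

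Lepr, whose signalling form is disabled in db/db mice, had 7.84, 8.11, 8.14 and 7.83 at 4 days and 7.86, 7.83, 7.64 and 7.86 at 1 day, a difference of 0.18 that did not pass (limma, adjusted p = 0.335). Gnrh1, the gonadotropin-releasing hormone gene, had 8.25, 8.07, 8.55 and 8.03 at 4 days and 7.92, 7.80, 7.97 and 7.83 at 1 day. Those groups did not overlap and the difference of 0.35 did not pass (limma, adjusted p = 0.119). Ghrh, which releases growth hormone, differed by 0.18 (adjusted p = 0.261) and Htr2c, the serotonin 2C receptor through which serotonin lowers feeding, by −0.14 (adjusted p = 0.156).

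Housekeeping lists leaned lower by small amounts. Of 31 proteasome subunits 24 were lower at 4 days of celastrol, with a median of −0.04, of 29 genes of oxidative phosphorylation 19 were lower, with a median of −0.04, and of 18 cytosolic ribosomal proteins 12 were lower, with a median of −0.08. None of these genes passed, and 57.8% of all genes had a difference above 0 in celastrol mice. The lists leaned lower in vehicle mice too. There 20 proteasome, 22 oxidative phosphorylation and 13 ribosomal genes were lower, with medians of −0.02, −0.04 and −0.04. Psmb5, the chymotrypsin-like subunit of the proteasome, went against its list. It had 13.09, 12.95, 12.90 and 12.99 at 4 days and 12.79, 12.77, 12.72 and 12.83 at 1 day of celastrol. Its groups did not overlap, and the difference of 0.20 did not pass (limma, adjusted p = 0.0967).

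Among 18 astrocyte markers 9 were higher and 9 lower, and 5 had 4-day arrays that all lay below the 1-day arrays, as did 2.95% of all genes. Htra1, a secreted protease of astrocytes, had 10.65, 10.54, 10.62 and 10.58 at 4 days and 10.86, 10.72, 10.93 and 10.96 at 1 day, with a difference of −0.27 (limma, adjusted p = 0.0777). Glul, glutamine synthetase, differed by −0.14 (adjusted p = 0.216) and Slc1a3, a glutamate transporter, by −0.10 (adjusted p = 0.237). Of 27 GABA and glutamate receptor subunits 15 were higher and 12 lower, and none passed. Of the 27, 2 lay wholly below their 1-day arrays (2.95% of all genes) and 2 wholly above (6.8% of all genes). The 2 below, Gabrb2 and Gabra3 of the GABA-A receptor, differed by −0.15 and −0.15 in celastrol mice (adjusted p = 0.141 and 0.186) and fell in vehicle mice by 0.23 and 0.16 (limma, adjusted p = 0.00585 and 0.0471).

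Over the 36 lists together 704 genes were measured, 356 higher and 348 lower at 4 days of celastrol, and 4 of them (0.568%, against 0.353% of all genes) passed. These were Chordc1, Vim, Oxt and Tnfaip3, each in a list of its own, and 32 lists held no gene that passed. The lists that came without a passed gene include circadian clock genes, with a median of 0.06 over 18 genes, cholesterol and fatty acid synthesis, with 0.01 over 22, blood leukocytes, with −0.04 over 16, and microglia, with 0.01 over 18.

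**Figure D4:**
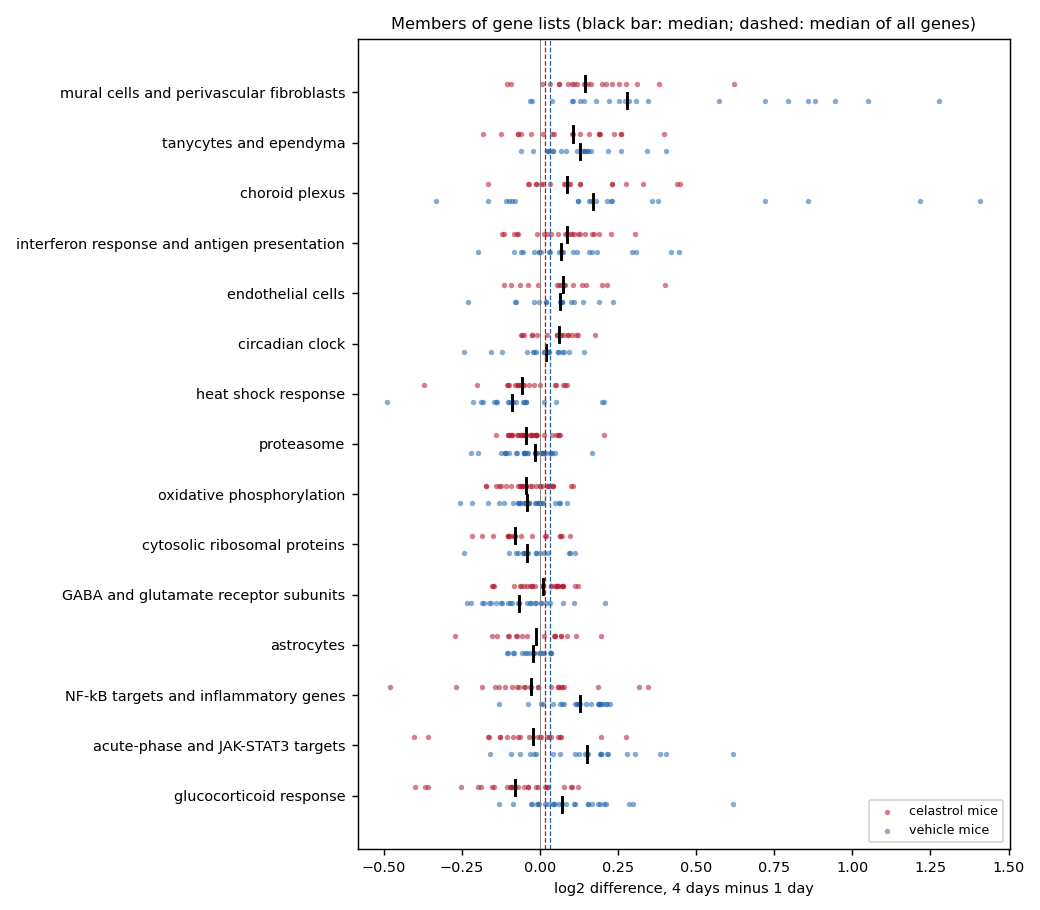
Log2 difference between 4 days and 1 day for the members of 15 gene lists, with celastrol mice (red) above vehicle mice (blue) in each row. Points are genes, black bars are list medians and dashed lines are the medians over all genes, 0.02 in celastrol mice and 0.03 in vehicle mice. The 3 lists at the bottom, NF-κB targets, acute-phase genes and glucocorticoid-response genes, have medians below 0 in celastrol mice and above 0 in vehicle mice. Some lists not drawn have the same signs. These are blood leukocytes (−0.04 and 0.12), erythrocytes (−0.02 and 0.09), thalamus and striatum (−0.01 and 0.04) and oligodendrocyte precursors (−0.0008 and 0.03).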

How the data were processed

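Total RNA of mouse hypothalamus was hybridised, 1 array per sample, to Affymetrix whole-transcript arrays, per the labels' protocols. The authors deposited RMA values, which are log2 expression, for each probe set (RMA per the submitters' processing notes). No software version, normalisation batch or filter is stated in the sources used here, and no value was changed before testing.

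Of 23492 probe sets, 20228 named 1 gene in the array's annotation table, 1399 named several and 1865 named none. Where a gene had several probe sets (811 genes) the probe set of highest mean was taken, which left 18702 genes with no filter on level. Symbols were updated through RefSeq identifiers. Il1r1, Agrp and Hspa1b have no own probe set in that table and were not analysed here.

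A model of 6 group means over all 23 arrays was fitted with limma 3.58.1 in R 4.3.3, with moderated tests (17 residual and 5.424 prior degrees of freedom) and Benjamini-Hochberg adjustment at 0.05. The contrasts were 4 days minus 1 day in celastrol mice, the same in vehicle mice, and the difference of the 2. An exact test of 4 arrays against 4 cannot give a 2-sided p under 0.0286. The arrays' number limits the precision. The procedure was tested on simulated data.

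Genes named are up to 20 per direction with the largest difference past the threshold, the 5 of smallest p in the vehicle contrast and in the difference, a fixed set, and up to 4 per list by p. The gene lists (36), the fixed genes and the comparison itself were chosen with earlier results of these data known. Alternatives tried were a robust variance trend, filters on low levels, quantile normalisation, centring, the replicate number as a block, array weights, every probe set, the groups compared alone, choroid plexus or pituitary marker means as covariates, leaving out each array and, chosen after the data were seen, the SD of each array as a covariate. Promoter windows and microRNA sequences are those of RefSeq for GRCm38.p6.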

Additional observations from a re-analysis of the deposited data

Results flagged for a closer look

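In groups of 4 arrays, a gene was listed where its highest or lowest array stood apart from the next by a share of the group's range above Dixon's 95% critical value, which chance gives in about 1 in 20 groups. Only genes chosen for this text were checked, in the 4-day and 1-day celastrol groups. At that rate some flags come by chance alone. On replicate 2 of the 1-day celastrol group Cga (0.988), Pomc (0.897) and Gh (0.842) were high, and Pla2g4e (0.959) and Rgs5 (0.94) were low. On replicate 3 of that group Nfkb2 (0.94), Lepr (0.88) and Ngp (0.865) were low and Prdx1 (0.837) was high, and on replicate 4 Ttr (0.842) was high. On the 4-day celastrol arrays Olfr384 (0.937) was high on replicate 4, Dnajb4 (0.879) was high on replicate 2, and Calb2 (0.857) and Nefm (0.836) were low on replicate 3.

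The time change of 17 genes differed between celastrol and vehicle mice by limma at an adjusted p under 0.05. Those named, given as the celastrol change minus the vehicle change on the log2 scale, are Olfr1393 at −0.66, Tmprss13 at −0.56, Il25 at −0.53, Cd8a at −0.49, Slc12a3 at −0.48, Galnt15 at −0.48, Cilp2 at −0.47, Rnf207 at −0.47, Hs3st6 at −0.43 and Tex22 at −0.43.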

How the results depend on the processing

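For 4 days against 1 day of celastrol the count of 66 became 39 with the replicate block, 1 with the groups compared alone, 6 with the choroid plexus mean as a covariate and 3 to 77 without 1 array. It stayed between 60 and 89 under the other 9 settings, with some other genes: 24 of 66 were among the reported 66 without genes below the median level, 40 of 62 without the lowest tercile, 49 of 60 with the robust trend, 48 of 61 with centring and 56 of 81 after quantile normalisation. The same-numbered arrays did not deviate together (correlations of −0.12 to 0.10, and −0.18 to 0.18 for arrays of different number). With 4 arrays per group this cannot exclude that the numbers pair the samples. The vehicle count of 2203 became 1195 without the lowest tercile of genes, 653 without genes below the median level, 817 after quantile normalisation, 3626 with array weights, 1468 with the pituitary mean, 0 with the choroid plexus mean (1757 at an unadjusted p under 0.05), 0 with the SD of each array (1784) and 1016 to 1874 without 1 array, and was 2089 with the replicate block. The count of 17 for the difference became 2 without genes below the median level, 0 after quantile normalisation, 0 with the choroid plexus mean, 0 with the SD of each array, 96 with array weights and 7 to 175 without 1 array, and was 14 with the replicate block. Of the named genes that did not pass, 4 changed sign in celastrol mice: Slc12a3 at −0.015 with quantile normalisation, −0.010 with centring, −0.0033 with array weights and −0.011 to 0.053 without 1 array, Kcnj13 at −0.26 and Igfbp2 at −0.15 with the choroid plexus mean, Igfbp2 at −0.0068 to 0.069 without 1 array, and Prl at −0.23 to 0.25 without 1 array, the last without replicate 2 of the 1-day group. The cause of these changes was not tested.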
